A study of Mus musculus with 38 samples.

Results

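The immunoglobulin loci were followed here through every ChIP-seq peak whose centre lay in 1 of 3 windows of the mouse genome (mm10): chr12:113200000-116050000 for the heavy chain locus Igh, chr6:67500000-70780000 for the κ light chain locus Igk and chr16:19000000-19300000 for the λ light chain locus Igl. Membership was set by position alone. The windows held 1026 of the 359759 peaks in 17 peak lists, 885 of them in Igh, 121 in Igk and 20 in Igl. Peaks of all lists that overlapped by at least 1 bp were merged, which gave 288 sites.

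An immunoglobulin gene is assembled in B-lineage cells by joining variable (V), diversity (D, heavy chain only) and joining (J) segments that lie upstream of the constant genes. Each V segment ends in a recombination signal, a heptamer and a nonamer held apart by a spacer, which the RAG recombinase recognizes. CTCF, an insulator protein whose motif has a direction, helps to fold these long loci, the intronic enhancer between the heavy chain J segments and Ighm drives early transcription, and RUNX1 binds DNA together with its partner Cbfb. Med12 is a subunit of the Mediator kinase module, p300 is a histone acetyltransferase found at active enhancers, and Notch1-IC is the intracellular part of Notch1 that enters the nucleus after ligand binding.

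All samples came from Cas9-LP cells, lymphoid progenitors grown from fetal liver of mice that lacked Ebf1, a factor required for the B lineage, and carried a Rosa26-Cas9 knock-in, so neither allele state differed between groups. Cells on OP9 stroma (LP) were profiled with antibodies to RUNX1, CTCF, Med12, p300 and Notch1-IC, and cells on OP9-DLL4 stroma (Phase 1), where DLL4 stimulates Notch, with the same 5 antibodies. Cells at a later stage on OP9-DLL4 (Phase 2) were profiled for Notch1-IC only. Guide RNA groups were RUNX1 in LP with sgCont or sgCTCF, Med12 in Phase 1 with sgCont or sgCbfb, and RUNX1 in Phase 1 with sgCont or sgMed12. The guides were retroviral pools against each gene, the control guides targeted luciferase, and these ChIPs are described by the study as made from few cells. The strain of origin of the Igh alleles is not given in the sources used here, while the reference genome is C57BL/6J. Each group had 2 replicates, but each deposited list combines them, so every count below describes lists, and tests and intervals cover counting error only, with no spread between cultures.

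The 8 main lists (4 factors at 2 stages) held between 95 and 169 peaks in the loci, or 0.230% to 0.372% of each list. The 3 Notch1-IC lists held 14, 2 and 2 peaks of lists of 1585, 152 and 352. Among the 6 guide lists, the RUNX1 lists held 1 to 3 peaks of 874 to 2094, and the Med12 lists held 29 of 19053 (sgCont) and 9 of 18099 (sgCbfb). Each peak came with the authors' normalized score, never under 15, whose scale is not stated. Scores were therefore read only within a list, as a rank or as a percentile in which 100 is the highest score of the list.

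The sequences that follow the V segments are shown first, as examples chosen for their string and their peaks, with counts over all segments given later. The bases right after the 3′ end of the segment are shown 5′ to 3′ on the strand of the V segment (mm10). The first set has the 4 functional Ighv1 segments that carried the string and had the highest LP RUNX1 scores, at chr12:115312106-115312165, chr12:115193615-115193674, chr12:115920219-115920278 and chr12:115386637-115386696, all on the minus strand. The capitals mark a RUNX string in the spacer of the recombination signal.
Ighv1-58: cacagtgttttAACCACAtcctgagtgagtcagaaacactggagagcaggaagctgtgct
Ighv1-54: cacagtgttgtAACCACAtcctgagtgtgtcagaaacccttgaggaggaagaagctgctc
Ighv1-81: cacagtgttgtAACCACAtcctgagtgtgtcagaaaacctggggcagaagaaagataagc
Ighv1-62-1: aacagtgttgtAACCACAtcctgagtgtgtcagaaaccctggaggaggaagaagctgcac

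Their LP RUNX1 scores were 187.6, 139.0, 123.5 and 119.4 in that order, and their Phase 1 scores 129.5, 138.1, 141.7 and 83.5. The next 4 were chosen as the first functional Ighv1 segments by position with a changed string and no RUNX1 peak, at chr12:114682572-114682631, chr12:114708588-114708647, chr12:114723712-114723771 and chr12:114746213-114746272 on the minus strand. They had no Med12 or p300 peak within 1 kb at either stage. The capitals mark the same 7 positions, which differ there by C3A, counted from 1 at the first capital.
Ighv1-18: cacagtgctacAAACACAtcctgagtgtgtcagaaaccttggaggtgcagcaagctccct
Ighv1-19: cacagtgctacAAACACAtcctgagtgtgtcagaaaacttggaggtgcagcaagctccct
Ighv1-20: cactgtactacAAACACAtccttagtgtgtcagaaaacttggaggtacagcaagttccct
Ighv1-22: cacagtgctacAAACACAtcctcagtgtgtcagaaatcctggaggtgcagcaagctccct

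Segments of Ighv5 and Ighv2 carried a CTCF motif there instead, marked in capitals, and are shown with the exceptions that held a similar motif and no peak. Ighv5-2 (chr12:113578414-113578503, LP CTCF score 155.0) and Ighv2-2 (chr12:113588177-113588266, 115.4) had peaks, and Ighv5-9 (chr12:113661679-113661768) and Ighv2-4 (chr12:113653201-113653290) had none. All 4 are functional segments on the minus strand.
Ighv5-2: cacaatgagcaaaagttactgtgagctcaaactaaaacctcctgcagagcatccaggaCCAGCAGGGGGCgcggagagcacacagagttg
Ighv5-9: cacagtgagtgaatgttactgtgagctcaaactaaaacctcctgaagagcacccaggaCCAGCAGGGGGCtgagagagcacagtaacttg
Ighv2-2: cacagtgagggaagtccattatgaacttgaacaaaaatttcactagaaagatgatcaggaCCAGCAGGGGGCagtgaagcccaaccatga
Ighv2-4: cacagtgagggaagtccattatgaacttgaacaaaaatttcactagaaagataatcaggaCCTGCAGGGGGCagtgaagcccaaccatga

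The last pair differed at 2 of 90 bases, G53A and A63T, counted from 1 at the first base printed. The CTCF matrix, described with the motif results, scored 22.55 after Ighv2-2 and 9.68 after Ighv2-4, both above the threshold of -4.51 that 5% of flanking windows passed.

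Across the loci, Igh and Igk differed in how densely peaks were spaced. CTCF peaks stood at 45.3 per Mb in the Igh window in LP and at 10.4 per Mb in the Igk window, beside 16.7 per Mb for the whole list. RUNX1 peaks stood at 36.5 per Mb in Igh and 2.44 per Mb in Igk in LP, beside 11.7 per Mb for the whole list. Med12 and p300 followed the same order, with 31.6 and 36.1 peaks per Mb in Igh and 1.22 and 2.44 in Igk. In Phase 1 the Igh densities were 40.7 for CTCF, 35.1 for RUNX1, 31.9 for Med12 and 35.8 for p300. Igl, with 3 V segments, held 6 CTCF peaks and 1 peak each of RUNX1, Med12 and p300 in LP. Igh was thus the densest locus for all 4 factors at both stages, and Igk was below the whole list for all 4.

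Most Igh peaks lay among the V segments, which also take up most of the window (2437.2 kb of 2.85 Mb). LP densities in the V cluster were therefore near those of the whole window. They were 49.6 against 45.3 peaks per Mb for CTCF, 37.3 against 36.5 for RUNX1, 32.4 against 31.6 for Med12 and 37.7 against 36.1 for p300. Of 129 LP CTCF peaks in the window, 121 were in the V cluster (chr12:113572927-116010093), as were 91 of 104 RUNX1, 79 of 90 Med12 and 92 of 103 p300 peaks. The V cluster held 210 merged sites. CTCF alone occupied 96 of them, CTCF with another of the 4 factors 27, and the other factors without CTCF 87. RUNX1, Med12 and p300 were all present, without CTCF, at 71 of these 87. Sites where RUNX1, Med12 or p300 stood alone numbered 11. No peak of the 4 factors lay in the annotated gap between V and D segments (chr12:113528055-113572926).

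**Figure D1:**
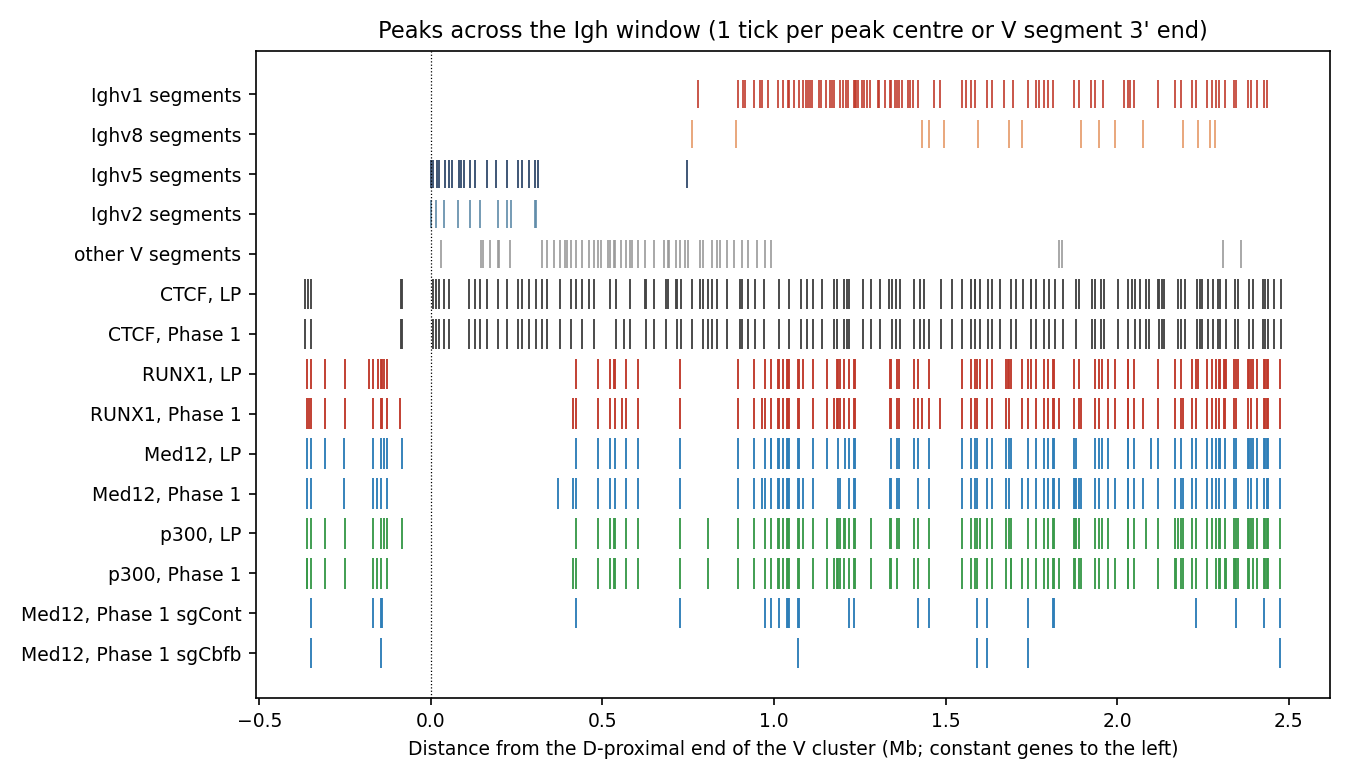
Peak centres across the Igh window, 1 row for each list, plotted by distance in Mb from the D-proximal end of the V cluster; the top rows mark the 3′ ends of V segments by family and the dotted line marks that end. Ticks of CTCF run along the whole V cluster, whereas most ticks of RUNX1, Med12 and p300 lie in the part that holds the Ighv1 segments, and the 2 bottom rows hold 27 (sgCont) and 7 (sgCbfb) Med12 peaks of the window.

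The V cluster was then divided at the first Ighv1 segment, a boundary chosen after the values had been seen. The D-proximal block of 0.78 Mb had 71 V segments and no Ighv1 member. In LP this block held 35 CTCF, 8 RUNX1, 7 Med12 and 8 p300 peaks. Whether the RUNX1, Med12 and p300 counts were low for a stretch of this length was not tested. The distal block of 1.66 Mb, with 123 V segments of which 92 belonged to Ighv1, held 86 CTCF, 83 RUNX1, 72 Med12 and 84 p300 peaks. Of the CTCF sites in the D-proximal block, 28 of 36 lay within 1 kb of a V 3′ end, at a median distance of 0.0665 kb over all 36. In the distal block 11 of 87 did, with a median distance of 3.29 kb. CTCF thus lay mostly next to V segments in the first block and mostly between them in the second.

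Counted by V segment, the families fell into those with CTCF and those with RUNX1, Med12 and p300 at the 3′ end. Of 92 Ighv1 segments, 50 had a RUNX1 peak centre of either stage within 1 kb of the 3′ end, 50 a Med12 peak and 49 a p300 peak, and 3 had a CTCF peak. All 3 of RUNX1, Med12 and p300 were present at 48. LP RUNX1 scores at these ends ran from 16.6 to 187.6 with a median of 51.6, and Phase 1 scores from 17.7 to 141.7 with a median of 54.8. Among the 16 Ighv8 segments, 11 had RUNX1, 9 Med12, 8 p300 and 2 CTCF. All 4 Ighv9 and 3 of 4 Ighv14 segments had RUNX1, Med12 and p300.

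No segment of Ighv5, Ighv2, Ighv3 or Ighv6 had a RUNX1, Med12 or p300 peak at its 3′ end. CTCF was found at 8 of 21 Ighv5, 7 of 11 Ighv2, 3 of 8 Ighv3 and 3 of 7 Ighv6 segments, in Ighv3 only in LP and with scores from 17.5 to 27.0. The 15 LP CTCF scores at Ighv5 and Ighv2 ends ran from 45.6 to 155.0 with a median of 79.2. The smaller families Ighv7 (4 of 4), Ighv4 (2 of 2), Ighv11 (2 of 2) and Ighv10 (2 of 4) also had CTCF and none of the other 3 factors. Over all 194 Igh V segments, 71 had RUNX1, 39 had CTCF and 5 had both. Seen from the sites, 72 of the 114 V cluster sites with RUNX1, Med12 or p300 lay within 1 kb of a V 3′ end, 70 of them within 200 bp, and 4 of the 72 overlapped a CTCF peak. The other 42 lay farther away, and 23 of them overlapped a CTCF peak.

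**Figure D2:**
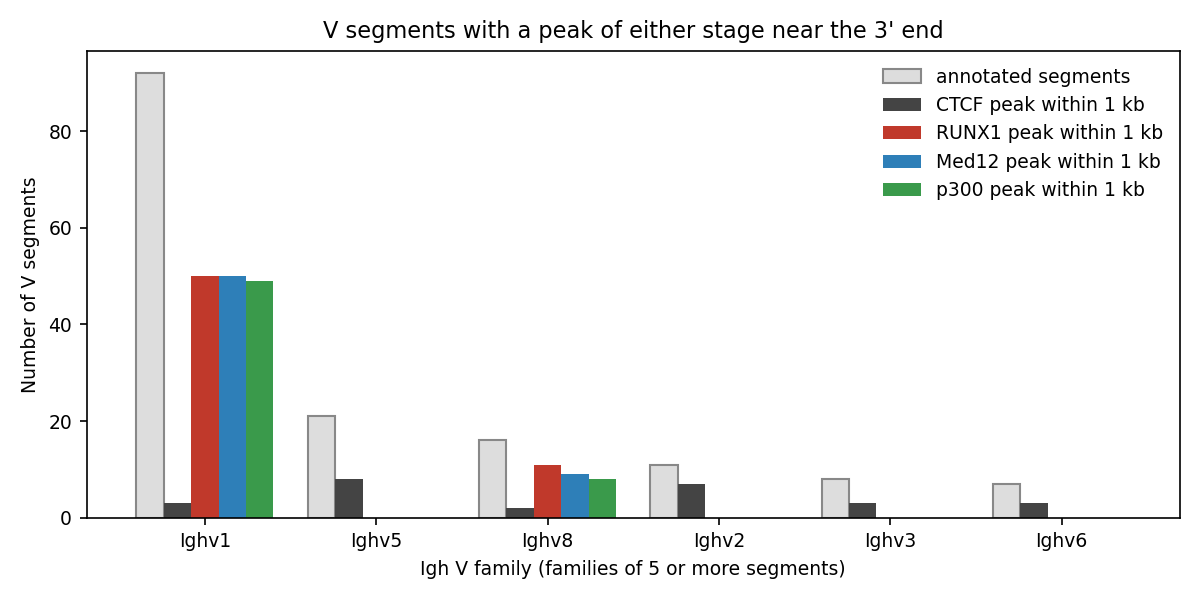
Number of Igh V segments per family (x axis, families of 5 or more segments) that were annotated (light bars) and that had a CTCF, RUNX1, Med12 or p300 peak centre of either stage within 1 kb of the 3′ end (y axis, counts). Ighv1 and Ighv8 bars are made of RUNX1, Med12 and p300, with 3 and 2 CTCF segments, and Ighv5, Ighv2, Ighv3 and Ighv6 bars are made of CTCF alone.

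Most peak centres clustered near these ends, at a distance that differed by family. At Ighv1 the median LP centre was 0.5 bp past the 3′ end for RUNX1 (quartiles -21.0 and 21.0, n = 48), 15 bp for Med12 (n = 45) and 6 bp for p300 (n = 49). Of the 48 RUNX1 centres, 45 were within 100 bp, and the full range was -380 to 130 bp. The median LP CTCF centre was 54 bp past the end at Ighv5 (lowest 41, highest 67, n = 8) and 71 bp at Ighv2 (lowest 56, highest 78, n = 7). The Ighv8 centres lay farther out, at a median of 148 bp for LP RUNX1 (quartiles 143.5 and 161, n = 7). The peaks thus stood at a different median distance in each of these groups of families.

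**Figure D3:**
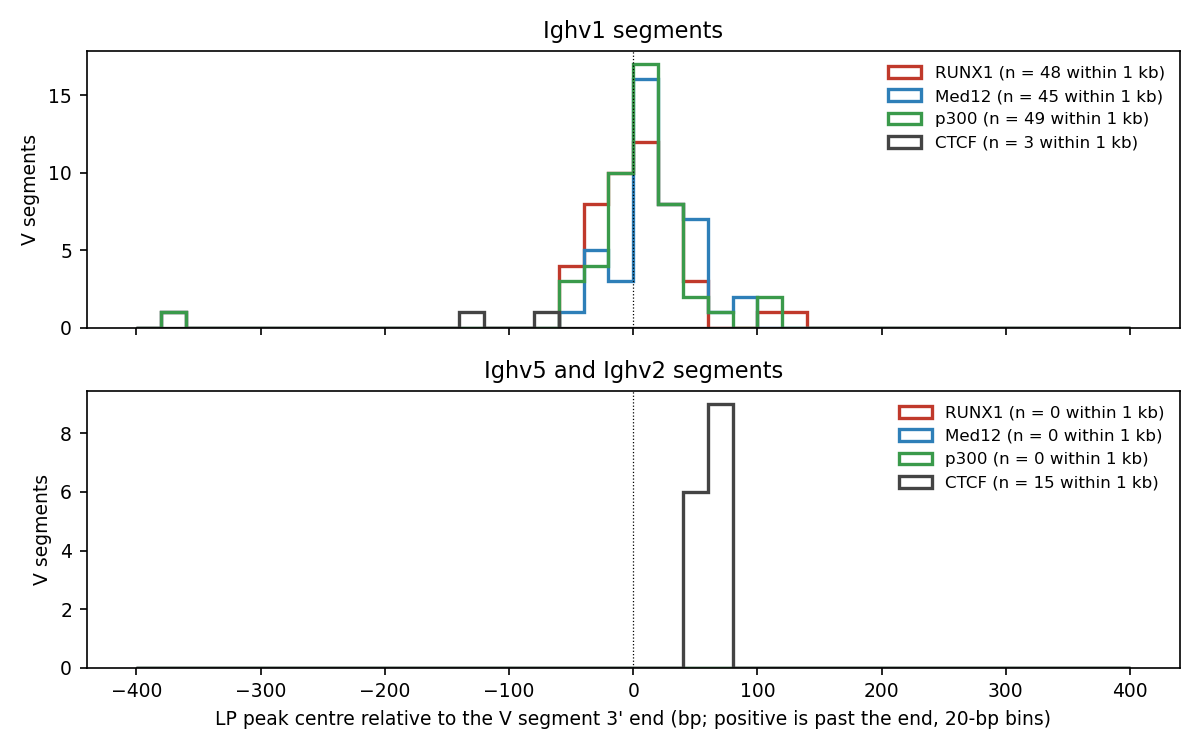
Position of the nearest LP peak centre within 1 kb of the 3′ end of each V segment (x axis, bp, positive past the end, bins of 20 bp) and the number of segments (y axis), for Ighv1 (top) and for Ighv5 with Ighv2 (bottom). A peak within reach of several segments is counted at each. RUNX1, Med12 and p300 centres of Ighv1 pile up around 0, the 15 CTCF centres of Ighv5 and Ighv2 lie from 41 to 78 bp, and centres beyond 400 bp are not drawn.

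The RUNX string searched was TGTGGTT or TGCGGTT on either strand, which reads AACCACA or AACCGCA on the other. It was found within the 200 bp around 75 of 91 LP RUNX1 peaks of the Igh V cluster (82.4%) and 79 of 88 in Phase 1 (89.8%). The whole lists had it at 21.2% and 25.4% of peaks, and flanking windows of equal width, 2 kb away on either side of the peaks in the loci, had it at 6.19% and 4.5%. Med12 peaks of the Igh V cluster had it at 79.7% and 85.4%, beside 18.7% and 22.5% for the whole lists, and p300 peaks at 79.3% and 83.5%, beside 19.1% and 20.4%. RUNX1 peaks of the loci outside the V segments had it at 40% (6 of 15) in LP and 26.7% (4 of 15) in Phase 1.

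Where the string lay was examined after these values had been seen. The 39 bases after each 3′ end were searched, the length of a recombination signal (7 for the heptamer, 23 for the spacer, 9 for the nonamer). They began with the exact heptamer CACAGTG at 66 of 92 Ighv1 segments, and the start of the signal was not checked at the others. The string was found at 60 of the 92 segments, 54 of them at base 12. That base is inside the spacer where the signal starts right after the segment. Of those 60, 46 had a RUNX1 peak (76.7%, 95% Wilson interval 64.6 to 85.6), 46 a Med12 peak and 45 a p300 peak. Of the 32 without it, 4 had a RUNX1 peak (12.5%, 4.97 to 28.1), and the same number had Med12 and p300. The search required all 7 bases of the string, so a near variant counted as without it. For CTCF the counts were 2 of 60 and 1 of 32. Functional segments made up 38 of the 60 and 16 of the 32, and the rest were pseudogenes.

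**Figure D4:**
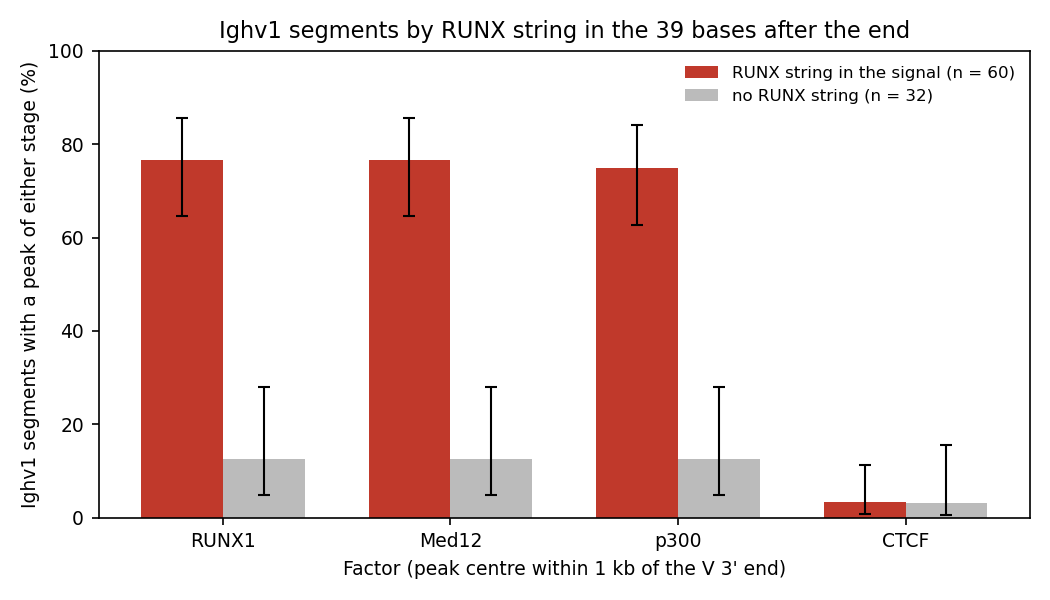
Share of Ighv1 segments (y axis, %) with a RUNX1, Med12, p300 or CTCF peak of either stage within 1 kb of the 3′ end, for 60 segments with the RUNX string in the 39 bases after the end (red) and 32 without (grey); whiskers are 95% Wilson intervals. The red bars stand at 76.7% for RUNX1 and Med12 and 75.0% for p300 against 12.5% in grey, and the CTCF bars at 3.33% and 3.12%.

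By the exact 7 bases at positions 12 to 18, AACCACA was present at 54 segments, of which 45 had RUNX1. A change of C3A was present at 12 segments, of which 1 had RUNX1 (the pseudogene Ighv1-86, with a score of 39.5 in LP and 17.9 in Phase 1). A change of C6T was present at 4 segments and none had a peak, whereas A1G was present at 3 segments and all 3 had RUNX1 (Ighv1-2, Ighv1-5 and Ighv1-12, with LP scores of 73.9, 58.6 and 133.5). With A1G the 7 bases read TGTGGTC on the other strand, which differs from the searched TGTGGTT only in its last base. The search did not count them as the string. The segments of these classes also differed outside the 7 bases. Of those printed above, Ighv1-54 and Ighv1-18 differed at 13 of 60 bases, and Ighv1-18 and Ighv1-19 at 1. The counts therefore cannot be assigned to a single base. The string was rarer in other families. It was in the same stretch of 7 of 102 other Igh V segments (6.86%), all 7 of which had RUNX1, and these were the 4 Ighv9 and 3 Ighv14 segments.

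Ighv9 and Ighv14 carried the string at the same base as Ighv1, as these examples at chr12:114299901-114299960 and chr12:113994409-113994468 (minus strand) show, with the string in capitals.
Ighv9-4: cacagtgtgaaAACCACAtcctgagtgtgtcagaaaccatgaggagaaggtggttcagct
Ighv14-2: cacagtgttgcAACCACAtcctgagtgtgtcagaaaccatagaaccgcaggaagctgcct

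Ighv9-4 scored 34.6 for RUNX1 in LP and 90.1 in Phase 1, 35.4 and 111.2 for Med12, and 41.1 and 143.9 for p300. Ighv14-2 scored 61.7 and 87.4, 52.9 and 67.8, and 49.3 and 62.9 in the same order. Ighv8 lacked the string in the recombination signal but 9 of 16 segments had it within 120 bases of the end, and 8 of these 9 had RUNX1, as did 3 of the 7 Ighv8 segments without it. It is shown for Ighv8-6 (chr12:115165657-115165776, minus strand), a functional segment with RUNX1 scores of 109.3 in LP and 135.7 in Phase 1, where it begins at base 112.
Ighv8-6: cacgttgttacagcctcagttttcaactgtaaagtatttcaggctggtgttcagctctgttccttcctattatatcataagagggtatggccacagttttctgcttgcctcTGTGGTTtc

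The V segments are near copies of each other, and the authors kept reads with up to 3 mismatches and up to 10 placements, so a peak at one copy may hold reads from another. In the 200 bp around each site, a median of 77.5% of all 50-base stretches occurred once in the genome at the 114 V cluster sites with RUNX1, Med12 or p300, and 98.0% at the 96 sites with CTCF alone. The 46 Ighv1 ends with string and RUNX1 had a median of 61.2%. The 14 with the string and no RUNX1 had 88.4%, and the 28 with neither had 74.8%. Some 50-base stretches had more than 10 placements at 14 of the 46 ends, 1 of the 14 and 1 of the 28. The labels and the study's methods differ on the read length. For stretches of 75 bases the 3 medians were 94.8%, 100% and 98.4%, and no such end had a stretch with more than 10 placements. What these repeats do to the peaks was not tested. At ends where all 50-base stretches were unique, 8 of 11 with the string had RUNX1 and 1 of 10 without it did.

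CTCF motif matches were sought with a matrix built from 7505 exact consensus matches at LP CTCF peaks outside the 3 windows. A match was found at 143 of 151 LP CTCF peaks among the V segments of the 3 loci (94.7%) and at 17 of 18 elsewhere in the windows (94.4%), beside 79.6% of the whole list. The difference did not pass Fisher's exact test (odds ratio 1.05, adjusted p = 1.0 by the Benjamini-Hochberg method over the 6 tests made here). With a stricter matrix threshold that 1% of flanking windows passed, the counts became 111 of 151 and 8 of 18 and the difference passed (adjusted p = 0.03 by the same exact test). The motif direction was compared next. Among V cluster peaks of Igh, 112 of 114 matches lay on the minus strand, the strand of 193 of the 194 V segments, and 2 on the plus strand (1.75%, 0.482 to 6.17). Elsewhere in the Igh window 3 of 7 matches lay on the plus strand (42.9%, 15.8 to 75.0). The difference passed Fisher's exact test with an odds ratio of 0.0238 and an adjusted p = 0.00693. Many of the 114 matches had the same bases as another, yet the test counted each as independent. Its p-value thus does not rest on 114 separate units. Only 7 matches stood in the smaller group, and the call was lost with the stricter threshold (1 of 100 against 1 of 3, adjusted p = 0.173 by the exact test) and with the exact consensus (0 of 52 against 0 of 1).

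At Igk, where 82 V segments are on the plus and 94 on the minus strand, 17 V cluster matches were on the plus and 9 on the minus strand. The 3 plus-strand matches of Igh outside the V cluster were at a site in the 3′ region, at a site next to Ighd1-1 and at a site in the outer flank. A pair of neighbouring CTCF sites lay 3075 and 5702 bp from Ighd1-1 on the side of the V segments, the part of the locus known for a CTCF-bound insulator, and their matches pointed in opposite directions. The motif is shown on its own strand with its central part in capitals, the first from chr12:113485266-113485285 on the minus strand and the second from chr12:113487884-113487903 on the plus strand.
D-side site: ctctCCACAAGAGGGCagaa
V-side site: atagCCACAAGGGGGAagca

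The first of these sites had a CTCF score of 166.3 in LP and 121.2 in Phase 1, and the second of 251.5 in LP and 217.7 in Phase 1. At Ighv5 and Ighv2, whose motifs are printed above, 9 functional Ighv5 segments had a match within 120 bases and 8 of them had a CTCF peak, and 9 functional Ighv2 segments had a match and 7 had a peak. The exceptions were Ighv5-9, Ighv2-4 and Ighv2-7, and 92.1% of the 50-base stretches at the end of Ighv5-9, 55.6% at that of Ighv2-4 and 100% at that of Ighv2-7 were unique. None of the 92 Ighv1 segments had a match there.

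CTCF peaks that coincided with another factor were compared between the V segments and the other regions of the windows. In LP, 25 of 151 CTCF peaks among the V segments (16.6%, 11.5 to 23.3) overlapped a RUNX1, Med12 or p300 peak, and 6 of 18 elsewhere did (33.3%, 16.3 to 56.3), beside 20.9% of the whole list. In Phase 1 the counts were 20 of 132 (15.2%) and 5 of 18 (27.8%), beside 18.5%. Neither difference passed Fisher's exact test, with odds ratios of 0.397 and 0.464 and adjusted p = 0.209 and 0.278. With equal numbers of top-scored peaks taken from both stages, the Phase 1 counts became 9 of 132 and 5 of 18 and the difference passed (adjusted p = 0.03 by the exact test).

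Between the stages, most sites of the loci were listed in both. RUNX1 was listed at both stages at 95 of 129 of its sites (73.6%, 65.4 to 80.5), beside 60.8% over the whole list pair. CTCF was so at 147 sites (85.5%, 79.4 to 90), beside 83.6%. Med12 was so at 80 of 115 (69.6%, 60.6 to 77.2), beside 53.7%, and p300 at 96 of 129 (74.4%, 66.3 to 81.2), beside 50.7%. For CTCF the sites of a single stage were unequal, 22 in LP alone and 3 in Phase 1 alone, beside 4333 and 3738 over the whole list pair. For RUNX1 they numbered 18 in LP and 16 in Phase 1, beside 5385 and 11789 over the whole pair. For Med12 they numbered 15 and 20, beside 5849 and 14961, and for p300 16 and 17, beside 7491 and 20425.

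The LP-only CTCF sites were mostly weak ones. Of the 22, 21 had LP scores from 15.3 to 35.3. The other, at chr12:113215923-113216323 in the Igh 3′ region, 38707 bp beyond Igha, scored 254.8 and ranked 2049 in its list. Only 8 of the 2050 LP CTCF peaks with at least that score, or 0.39%, lacked an overlapping Phase 1 peak.

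Whether stage differences fell equally inside and outside the V segments was tested for CTCF and for the other factors. CTCF sites were listed at both stages at 130 of 153 V sites (85.0%, 78.5 to 89.8) and at 17 of 19 other sites (89.5%, 68.6 to 97.1), with an odds ratio of 0.665 and adjusted p = 1.0 by Fisher's exact test. Merged RUNX1, Med12 and p300 sites were so at 96 of 125 V sites (76.8%, 68.7 to 83.3) and 13 of 25 others (52.0%, 33.5 to 70), beside 52.9% of all such sites in the lists. Fisher's exact test gave an odds ratio of 3.06 and an adjusted p = 0.045. This call was lost under 4 of the 6 alternatives tried and the difference changed sign under the remaining 2. With the same number of top-scored peaks taken from both stages, the difference of 24.8 percentage points became -0.595.

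At sites listed at both stages, the rank within the list moved differently by factor. This reading was added after the values had been seen, and it carries no test. In the Igh V cluster, the Phase 1 percentile of Med12 was above the LP percentile at 58 of 68 peaks (85.3%), with medians of 40.2 in LP and 63.8 in Phase 1. Over the whole list pair it was above at 59.0% of shared peaks. For CTCF it was above at 11 of 107 V cluster peaks (10.3%), with medians of 55.8 and 48.3, and at 45.7% of shared peaks over the whole pair. A site 2097 bp from Ighv10-4 moved far for 3 factors, with percentiles of 5.67 in LP and 66.89 in Phase 1 for RUNX1, 12.53 and 88.15 for Med12, and 33.57 and 82.48 for p300. Over the whole cluster, the RUNX1 percentile was above at 52 of 78 (66.7%, whole pair 61.8%) and that of p300 at 45 of 81 (55.6%, whole pair 64.4%). Outside the V segments the Med12 percentile was above at 1 of 9 peaks and the RUNX1 and p300 percentiles at 4 of 12 each. Med12 peaks thus mostly ranked higher in Phase 1 in the Igh V cluster and mostly lower outside the V segments.

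In LP, the highest-ranked site of RUNX1, Med12 and p300 in the loci lay between the J segments and Ighm at chr12:113427323-113427709, 998 bp from Ighj4, in the intron that holds the heavy chain enhancer. Its LP scores were 323.5 for RUNX1 (rank 350 of the list), 344.2 for Med12 (rank 265) and 808.6 for p300 (rank 77), and it had no CTCF peak. In Phase 1 it ranked 2732 for RUNX1, 2135 for Med12 and 3384 for p300, with scores of 183.8, 156.0 and 208.6. All 3 ranks were thus lower in Phase 1, and its Phase 1 percentiles were 92.89, 94.55 and 93.11. It was also the one site of the loci that held a peak in each of the 6 guide lists, and it had a Notch1-IC peak in LP with a score of 28.4. The sequence around it (chr12:113427366-113427665, plus strand) is printed with the E-box CAGGTG, found 2 times, and the RUNX string in capitals.
J to C gap site: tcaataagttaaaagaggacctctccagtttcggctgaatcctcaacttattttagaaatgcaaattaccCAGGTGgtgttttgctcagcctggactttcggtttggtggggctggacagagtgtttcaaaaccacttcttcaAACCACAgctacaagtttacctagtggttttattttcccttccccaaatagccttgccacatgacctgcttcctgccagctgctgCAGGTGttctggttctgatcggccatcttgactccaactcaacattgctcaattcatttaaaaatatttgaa

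The E-box, the string that E2A and other E proteins bind, was searched as CAGGTG or CACCTG in the 200 bp around every peak. Outside the V segments it lay in 6 of 15 LP RUNX1 peaks (40%), 5 of 12 Med12 peaks (41.7%) and 6 of 14 p300 peaks (42.9%), beside 17.6%, 16.6% and 18.7% of the whole lists. In the Igh V cluster the shares were 17.6%, 11.4% and 15.2%. LP CTCF peaks had it at 8 of 18 outside the V segments (44.4%) and at 33.9% in the Igh V cluster, beside 19.6% of the whole list. A CTCF motif match can itself contain CAGGTG, so the CTCF shares may count that motif. Outside the V segments, the counts of the factors partly describe the same sites.

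The other RUNX1, Med12 and p300 sites of Igh outside the V cluster ranked lower. A site 3601 bp from Ighd, at chr12:113402824-113403183 among the constant genes, scored 107.2 in LP and 77.1 in Phase 1 for RUNX1, 82.4 and 82.5 for Med12, and 216.3 and 129.1 for p300. A site between Igha and Ighe at chr12:113265041-113265429 scored 104.1 and 31.6 for RUNX1 and 78.9 and 22.7 for p300, and had Med12 (48.4) in LP only. A site 18 bp from Ighd4-1, a D segment, had RUNX1 at 88.9 in LP and 45.7 in Phase 1, with no Med12 or p300 peak in the main lists and a Med12 peak of 22.1 with sgCont. All 3 sites had a higher RUNX1 percentile in LP than in Phase 1, at 80.42 and 70.69 for the first, 79.5 and 36.26 for the second, and 74.28 and 51.56 for the last.

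In the 3′ region, 32493 bp beyond Igha at chr12:113222124-113222550, CTCF reached its highest score in the loci, 548.2 in LP (rank 47 of 45388) and 662.8 in Phase 1 (rank 60). This site had all 4 factors at both stages, with RUNX1 at 39.2 and 26.8, and Med12 at 47.1 and 26.1. No match to the CTCF matrix was found in the 200 bp around its centre, whereas 79.6% of the whole LP CTCF list had one. The matrix was built from exact consensus matches, so a divergent motif may score below its threshold. Between this site and the site near Ighe no peak of any list was found. At the far end of the window, a site with RUNX1, Med12 and p300 at chr12:116047459-116048009 was annotated in the deposited lists as a promoter, whose transcript belongs in RefSeq to Zfp386, which is not an immunoglobulin gene.

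**Figure D5:**
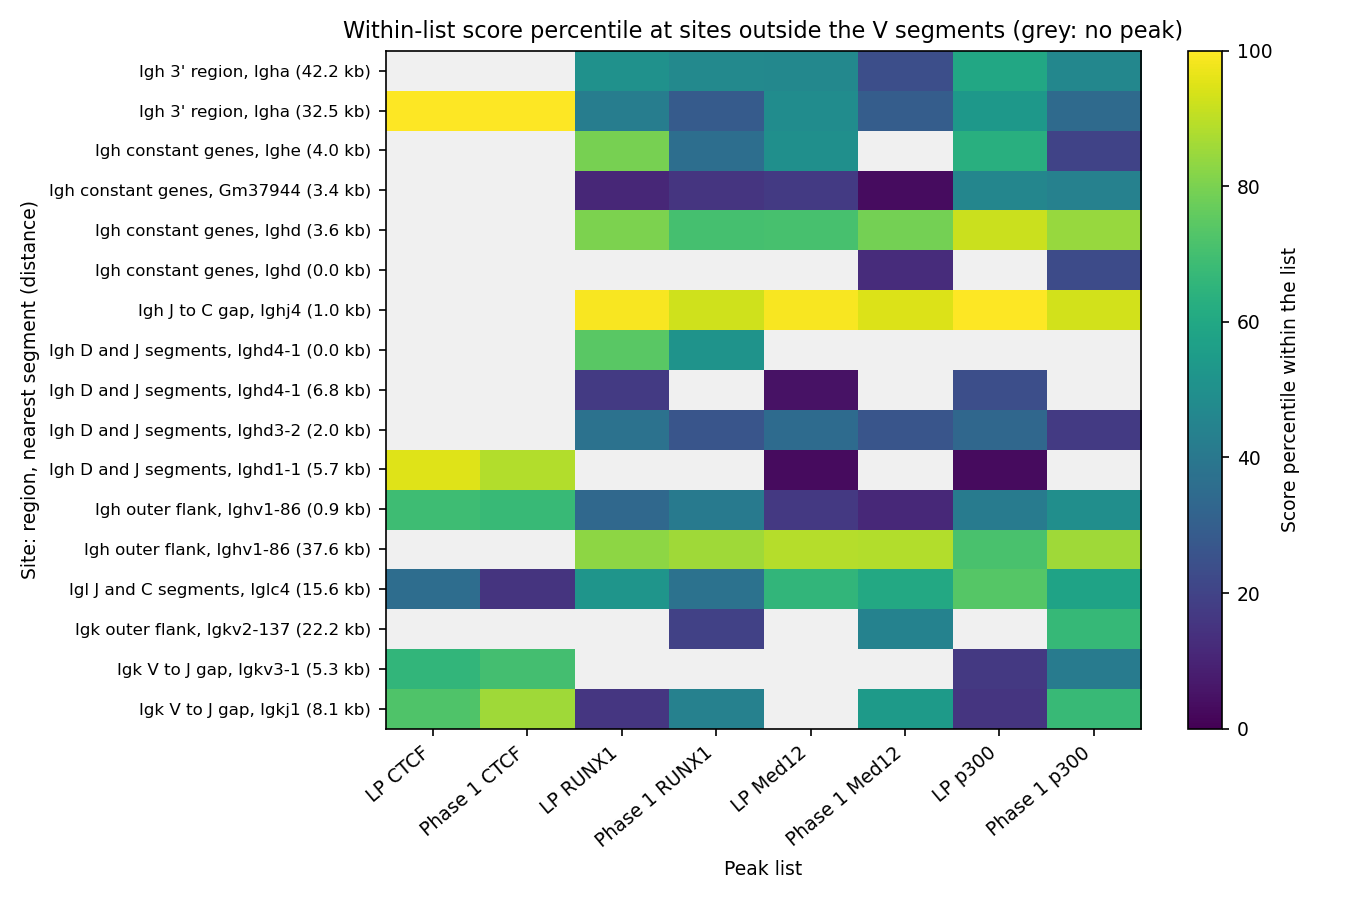
Score percentile within each of the 8 main lists (colour, 0 to 100, grey where no peak was listed) at the sites outside the V segments that held at least 2 factors or a peak of a guide or Notch1-IC list; rows are sites named by region, nearest annotated segment and distance in kb, columns are lists. The site in the J to C gap lies between 92.89 and 99.79 in the 6 RUNX1, Med12 and p300 lists, and the 3′ site with CTCF is at 99.9 in LP and 99.87 in Phase 1.

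At Igk, 37 sites lay among the V segments, of which 26 had CTCF alone and 10 had other factors without CTCF. LP CTCF scores there ran from 15.3 to 148.9, with a median percentile of 22.9 beside 53.3 in the Igh V cluster. RUNX1 was present at V 3′ ends in 1 family only, Igkv10, where all 3 segments had RUNX1, Med12 and p300 peaks. Their LP RUNX1 scores were 48.0 at Igkv10-96, 49.9 at Igkv10-95 and 39 at Igkv10-94, and the Phase 1 scores were 51.5, 41.9 and 17.3. No other Igk V segment had RUNX1, Med12 or p300 there, and 1 had CTCF. The bases after 2 of these segments (chr6:68680849-68680908, plus strand, and chr6:68631903-68631962, minus strand) differed only by T49G, which falls in the RUNX string that capitals mark in the first.
Igkv10-95: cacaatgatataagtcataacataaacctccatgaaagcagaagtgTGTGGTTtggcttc
Igkv10-96: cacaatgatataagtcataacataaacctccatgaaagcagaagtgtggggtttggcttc

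Igkv10-94 matched Igkv10-95 at all 60 bases. Between the V and J segments of Igk, a region known for CTCF-bound elements, CTCF scored 107.6 in LP and 127.0 in Phase 1 at chr6:70709272-70709703, and 129.9 and 200 at chr6:70714178-70714703. The second of these, 8122 bp from Igkj1, also had RUNX1 (21.6 and 37.9), p300 (21.9 and 72.1) and, in Phase 1, Med12 (44.2). Its percentile was higher in Phase 1 for all of CTCF, RUNX1 and p300. No peak of any list lay between the J segments and Igkc, or beyond Igkc before chr6:70752453, where a CTCF peak began. These stretches are known to hold the intronic and 3′ κ enhancers. Why these stretches held no listed peak was not tested.

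At Igl, the 3 V segments had only CTCF peaks nearby, 2699 bp from Iglv1 (LP score 36.5), 2700 bp from Iglv2 (73.7) and 4389 bp from Iglv3 (36.1). Their Phase 1 scores were 34.8, 53.4 and 30.5. A site 15589 bp from Iglc4 (chr16:19179165-19179656) held all 4 factors at both stages, with p300 at 105.8 in LP and 55.3 in Phase 1, Med12 at 72.6 and 50.8, RUNX1 at 49.5 and 32.7, and CTCF at 42.6 and 24.5.

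The guide lists touched the loci at few sites. Of 29 Med12 peaks in Phase 1 cells with sgCont, 22 lay in the Igh V cluster, 20 of these in the distal block. All 29 overlapped a RUNX1 peak of unmanipulated Phase 1 cells, as did 94.4% of the whole sgCont list. An sgCbfb peak overlapped 8 of the 29 (27.6%, 14.7 to 45.7), beside 67.8% of the whole list. In the Igh V cluster 4 of 22 had one (18.2%, 7.31 to 38.5), and outside it 4 of 7 (57.1%, 25 to 84.2).

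The sgCont scores in the Igh V cluster were low, from 15.3 to 46.4 with a median of 22.1. Over all sgCont peaks in that score range, 55.4% had an sgCbfb peak. The 4 V cluster sites with an sgCbfb peak lay 5247 bp from Ighv1-14 and 145 bp or less from Ighv8-6, Ighv1-54 and Ighv1-58, with sgCbfb scores of 16.2, 18.3, 20.7 and 64.2 and sgCont scores of 15.7, 26.5, 22.9 and 36.1. Of the 100 Phase 1 Med12 peaks of the loci, 28 were in the sgCont list and 8 in the sgCbfb list (8%, 4.11 to 15), beside 45.4% and 36.3% of the whole Phase 1 Med12 list. The share of V cluster sgCont peaks with an sgCbfb peak was thus below that of the whole list and of all peaks in that score range. Scores within the range were not matched. There was 1 list per guide and no measure of spread between cultures.

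RUNX1 lists with guides held the J to C gap site in all 4 cases, with scores of 25.4 (sgCont) and 35.1 (sgCTCF) in LP, and 19.7 (sgCont) and 17.7 (sgMed12) in Phase 1. The other peaks were a site 165 bp from Ighv8-4 in Phase 1 sgCont (24.0) and, in sgMed12, the sites near Ighv1-26 (17.5) and Ighv1-54 (15.5). The site near Ighv1-26, at chr12:114790772-114791269 and 2215 bp from that segment, was the highest-scored V cluster site of CTCF (275.9 and 299.2) and p300 (356.2 and 481.9), and it also had RUNX1 (133.2 and 199.6) and Med12 (118.4 and 198.2). With 1 to 3 peaks a list, no comparison between guides was made.

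Notch1-IC peaks in the loci numbered 14 in LP, 2 in Phase 1 and 2 in Phase 2, or 0.883%, 1.32% and 0.568% of their lists. Of the 14 LP peaks, 7 lay in the Igh V cluster, each at a site with RUNX1, Med12 and p300, with scores from 15.1 to 20.6. The Igkv10 ends held 3 more, at 15, 32 and 25.3 for Igkv10-96, Igkv10-95 and Igkv10-94. The J to C gap site (28.4) and the site 3601 bp from Ighd (15.1) each held 1. The LP cells were on stroma without DLL4, and the counts were not compared between stages as occupancy. The 2 strongest lay 13926 and 5349 bp from Igkv14-111, at chr6:68242244-68242683 and chr6:68250825-68251256, with scores of 112.0 and 113.2 in LP, 68.3 and 73.0 in Phase 1, and 35 and 36.3 in Phase 2. These were the only sites of the loci with Notch1-IC at Phase 1 or Phase 2. Their sequence is repeated in the genome, with a median of 6 copies per 50-base stretch at both and 13.9% and 0.0% of the stretches unique (16.7% and 0.0% at 75 bases), so their reads cannot be assigned to these positions alone. The first also had RUNX1 at 32.3 in LP and 24.1 in Phase 1, and the second had no RUNX1 or CTCF peak and a p300 peak of 15.1 in LP.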

How the data were processed

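The authors aligned reads to mm10 with Bowtie 1.1.1 (up to 3 mismatches, reads with more than 10 placements dropped), called peaks against a control with HOMER in factor mode and kept peaks reproducible between 2 replicates. The deposited lists give positions and the authors' normalized peak score of at least 15. The labels and the study's methods state different sequencers and read lengths. The 4 input samples were not used here. Read depth was not used, so list lengths were not compared as signal.

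Regions were cut from GENCODE M21 annotation of GRCm38, with V symbols listed more than once counted once, and all windows and strings were read from that genome with pysam 0.24.0. Overlap meant 1 bp. Fisher's exact tests were two-sided with sample odds ratios (scipy 1.17.1), and the 6 p-values were adjusted by the Benjamini-Hochberg method. Shares have 95% Wilson intervals. Stretches of 50 bases were counted without mismatches over 21 assembled chromosomes. Sites named outside the V segments held at least 2 factors or a guide or Notch1-IC peak. In the V segments, the 3 highest LP CTCF peaks of each locus, the 3 highest RUNX1, Med12 and p300 peaks of each stage, and all guide and Notch1-IC peaks qualified. Other named V segments were chosen after their values were seen. Members, regions, strings and tests were chosen with earlier results of these data known. Scripts were tested on simulated data.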

Additional observations from a re-analysis of the deposited data

How the results depend on the processing

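Differences are given in percentage points, V segments minus other regions. Of 48 alternatives, 34 left the direction and the side of the threshold (or, for a share, the value within its interval) unchanged. For merged RUNX1, Med12 and p300 sites listed at both stages, 24.8 became 24.2 with centres within 100 bp, 7.41 with scores of at least 30, 24.3 in Igh alone and 20.9 with functional V segments only, and the call was lost in each. It became -0.595 with equal numbers of top-scored peaks and -4.55 in Igk alone. For CTCF sites at both stages, -4.51 became 1.91 with scores of at least 30. For the CTCF matrix match, 0.258 became -3.7 in Igk alone, -0.369 with functional V segments, and 29.1, now past the threshold, with the threshold that 1% of flanking windows pass. For Phase 1 CTCF peaks with another factor, -12.6 became -21.0 and passed the threshold with equal numbers of top-scored peaks. For motif direction, -41.1 became -32.3 with the 1% threshold and 0.0 with the exact consensus, and the call was lost in both. The p300 share at both stages moved from 74.4% to 60.3% with equal numbers of top-scored peaks. The causes were not tested. No paired analysis was possible because each list combines its replicates, and for the same reason no replicate could be left out. Small groups outside the V segments (7 to 25 matches, peaks or sites) limit every test. Near copies among the V segments were counted as independent in each.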
